A study of Mus musculus with 24 samples.

Results

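The *Peg3* imprinted domain on proximal chromosome 7 was examined in the RNA-seq table through the genes named *Peg3*, *Usp29*, *Zim1* and *Zfp264*. Of these 4 names, 3 match a row among the 34745 genes of the table and all 3 passed the filter on low counts, whereas *Zfp264* was not analysed here. The genes were selected on their known change in read counts between the genotypes, so that change is described without a test. *Peg3* encodes a large zinc-finger protein and *Zim1* a smaller one. *Usp29* is listed in the table as a ubiquitin specific peptidase, so that it is no zinc-finger gene by its own description.

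All 12 embryos were E13.5 hybrids of the 129 and DBA strains and lacked maternal *Zfp57*, and the methods of the study describe such hybrids from matings in which *Zfp57*-/- females of the 129 strain were mated with *Zfp57*+/- males mainly of the DBA/2J background. The 6 M-Z+ embryos (*Zfp57*-/+) carry the wild-type paternal allele and the 6 M-Z- embryos (*Zfp57*-/-, maternal-zygotic mutant) carry none, with 1 library of the total embryo for each. Embryos with maternal *Zfp57* were not analysed here for RNA, and the bisulfite libraries of the series were not analysed here either. The labels give neither the sex nor the litter of an embryo, and p-values measure the spread between these embryos only. In a whole embryo, fewer expressing cells and less RNA per cell cannot be told apart, and the counts are totals over both parental alleles.

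An imprinting control region is a stretch of DNA that carries methylation from only one parent and sets which parental copies of the nearby genes are transcribed. At the *Peg3* domain it lies over the start of *Peg3* and *Usp29* and is methylated on the copy from the mother, so that *Peg3* and *Usp29* are transcribed from the copy from the father, whereas *Zim1* is transcribed from the copy from the mother. ZFP57 is a zinc-finger protein that binds the methylated hexamer TGCCGC and helps to keep such methylation in the early embryo. *Peg3* is known for its effects on growth and on maternal care in the mouse.

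*Peg3* (ENSMUSG00000002265) is listed at chr7:6703892-6730421, *Usp29* (ENSMUSG00000051527) at chr7:6730583-6967216 and *Zim1* (ENSMUSG00000002266) at chr7:6671456-6696450, on GRCm38. *Peg3* and *Usp29* lie head to head. In the RefSeq promoter table for GRCm38.p6 their start sites are 164 bases apart, with *Usp29* on the plus strand and *Peg3* on the minus strand, and *Zim1*, also on the minus strand, begins 7442 bases beyond the end of *Peg3*. The antisense transcript *Peg3os* (RefSeq, chr7:6706760-6707624) lies inside *Peg3* and was not analysed here. Whether the deposited counts were made with regard to strand is not known, so reads of *Peg3os* may be counted in *Peg3*. *Zim3* overlaps the far end of *Usp29* by 11532 bases.

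The DNA between the divergent start sites is shown because *Peg3* and *Usp29* moved together, and the DNA before the *Zim1* start site is shown because *Zim1* moved the other way. Capitals mark CpG, the 2 bases at which methylation is placed. The first sequence is the plus strand of chr7:6730420-6730582 and the second is the minus strand of chr7:6696433-6696682, both from RefSeq on GRCm38.p6.
Peg3 to Usp29: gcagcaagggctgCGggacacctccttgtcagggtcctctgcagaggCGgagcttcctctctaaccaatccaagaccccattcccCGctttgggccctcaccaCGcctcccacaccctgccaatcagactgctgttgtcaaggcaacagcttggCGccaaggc
Zim1: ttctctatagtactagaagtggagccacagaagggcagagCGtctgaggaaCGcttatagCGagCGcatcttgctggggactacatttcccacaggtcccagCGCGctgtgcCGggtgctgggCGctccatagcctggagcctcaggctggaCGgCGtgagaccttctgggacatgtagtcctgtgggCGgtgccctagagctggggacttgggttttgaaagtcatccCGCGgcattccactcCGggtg

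The stretch between *Peg3* and *Usp29* holds 5 CpG in 163 bases and the stretch before *Zim1* holds 14 CpG in 250 bases. In the windows from 250 bases before to 50 bases after a start site, there were 13 CpG for *Peg3*, 17 for *Usp29* and 20 for *Zim1*, against a median of 7 over 32851 such windows. Fewer CpG were found in 62.1%, 68.6% and 73.5% of the windows, so these counts are not unusual. The hexamer TGCCGC, searched on both strands, has no match in the windows of *Peg3* and *Usp29* and 1 match in that of *Zim1*, on the strand opposite to the one printed, 20 bases before the start site. A match was found in 11.6% of all windows. AAGATGG, a core of the sites of the factor YY1, was not found in any of these 3 windows and was found in 6.34% of all windows. A match is a description of the letters only, and the windows cover a small part of the domain. Any part of the control region outside the windows was not searched. A window without a match therefore does not show that the region has none.

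Total counts per library ranged from 12005145 to 19216288. *Zfp57*, the targeted gene, ranged from 19.1 to 40.8 CPM in the M-Z+ group and from 17.8 to 27.8 in the M-Z- group, where CPM are read counts scaled to a common library size after TMM normalization, and the deleted part of the gene is not given, so this does not check the genotype labels. Of 9 marker genes of placenta and decidua, 5 had no count in any library, among them *Tpbpa* and *Prl3d1*, and the 9 together reached at most 0.161 CPM in an M-Z+ and 0.141 in an M-Z- library. The summed levels of the markers of neurons, neural progenitors, skeletal muscle, liver, erythroid cells and cartilage overlapped between the genotypes, and none of these markers was called by edgeR, as 0.0811% of all tested genes were. The unadjusted edgeR p was below 0.05 for 2 of 6 neuron markers, *Stmn2* and *Tubb3*, and for 2 of 5 neural progenitor markers, *Fabp7* and *Hes5*, against 6.70% of all tested genes. All 4 were lower in M-Z- embryos, with log2 fold changes of -0.21, -0.24, -0.27 and -0.39, and their part in the levels of the members was not tested. The libraries differed in how steeply log2 CPM rose with log2 gene length. This slope was 0.671 to 0.681 in M-Z+ replicate 6 and M-Z- replicates 5 and 6, and 0.448 to 0.577 in the other 9 libraries, and values of the members are therefore given with and without these 3 libraries.

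*Peg3* and *Usp29*, the genes expressed from the paternal copy, were higher in M-Z- embryos, 2.31-fold and 3.06-fold in the fit, and *Zim1*, expressed from the maternal copy, was 10.6-fold lower. For each of these 3 genes, all 6 embryos of one genotype lay above all 6 of the other, as they did for 0.574% of the 16026 tested genes. The rule for a call was a Benjamini–Hochberg adjusted p below 0.05 in edgeR's quasi-likelihood test together with a log2 fold change beyond 0.5, which 0.0811% of the tested genes met, 0.0437% with higher and 0.0374% with lower values in M-Z- embryos. *Peg3* and *Zim1* met this rule and *Usp29* did not. *Peg3* did not meet it without M-Z+ replicate 1, 3 or 5 or M-Z- replicate 6, with log2 fold changes of 1.15, 1.21, 1.16 and 1.13, and *Usp29* met it by DESeq2 and in 2 fits with covariates. The genes were chosen with this contrast known, and nothing is read from whether they met the rule.

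**Figure D1:**
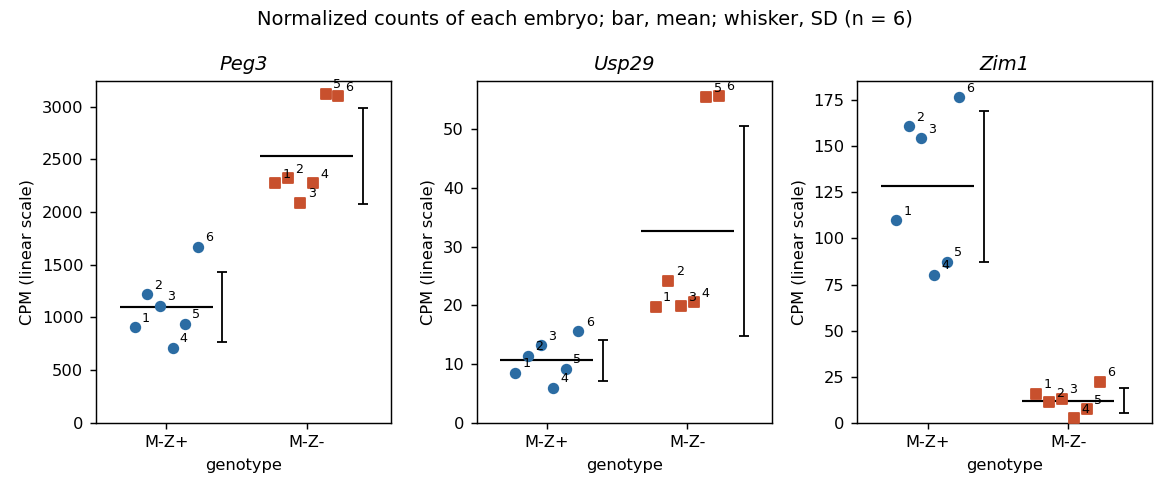
Normalized counts (CPM, linear axis from 0) of *Peg3*, *Usp29* and *Zim1* in each of the 6 M-Z+ and 6 M-Z- embryos, numbered by replicate, with the mean as a bar and the SD as a whisker. The genotypes do not overlap for any of the 3 genes, and M-Z- replicates 5 and 6 stand above the other M-Z- embryos for *Peg3* and *Usp29*.

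*Peg3*, a paternally expressed zinc-finger gene, had 909, 1222, 1112, 714, 938 and 1670.4 CPM in M-Z+ replicates 1 to 6. In M-Z- replicates 1 to 6 it had 2270.4, 2321, 2087, 2275, 3122 and 3097 CPM. M-Z+ replicate 6 was the highest M-Z+ embryo, and the lowest M-Z- embryo was 1.25-fold above it. The mean was 1094.2 ± 332 CPM for M-Z+ against 2529 ± 457 for M-Z- (SD, n = 6 each), and the fitted log2 fold change was 1.21 with a standard error of 0.18. With 1 embryo omitted at a time, the log2 fold change ranged from 1.11 to 1.36.

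In TPM, which allow genes to be compared per length, *Peg3* was at 145 to 398 TPM in M-Z+ and 459 to 728 TPM in M-Z- embryos. It stood between rank 260 and rank 1026 of all genes of the table in M-Z+ embryos and between rank 119 and rank 252 in M-Z- embryos. None of the 342 rows named *Zfp* with a number had a higher mean level in either genotype, and the highest of them, *Zfp706*, was at 169.7 TPM in M-Z+ and 177 TPM in M-Z- embryos. *Peg3* is thus a highly expressed gene of the embryo in both genotypes.

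*Usp29*, a paternally expressed gene for a protease that removes ubiquitin from proteins, was expressed at a far lower level. It had 8.54, 11.4, 13.2, 5.99, 9.18 and 15.6 CPM in M-Z+ replicates 1 to 6, from 106 to 300 counts. In M-Z- replicates 1 to 6 it had 19.8, 24.2, 19.8, 20.5, 55.4 and 55.7 CPM, from 236 to 791 counts. M-Z- replicates 5 and 6 were more than double the other M-Z- embryos, which lay close together. The mean was 10.7 ± 3.48 CPM for M-Z+ against 32.6 ± 17.9 for M-Z- (SD, n = 6 each), and the fitted log2 fold change was 1.61 with a standard error of 0.33. The log2 fold change was 1.09 (standard error 0.17) with the slope of gene length as a covariate and 1.22 (standard error 0.18) with 2 surrogate variables.

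Per length, *Usp29* had 1.23 to 3.76 TPM in M-Z+ and 4.40 to 13.2 TPM in M-Z- embryos. Among 46 other *Usp* genes, 40 had a higher mean TPM in M-Z+ and 37 in M-Z- embryos. The TPM of *Usp29* was 0.979% ± 0.119 of that of *Peg3* in M-Z+ and 1.23% ± 0.445 in M-Z- embryos (SD, n = 6). M-Z- replicates 1 to 4 gave 0.879%, 1.05%, 0.960% and 0.910%, within the range of the M-Z+ embryos. M-Z- replicates 5 and 6 gave 1.79% and 1.82%. M-Z+ replicate 6, which had a gene length slope like theirs, gave 0.945%.

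*Zim1*, a maternally expressed zinc-finger gene, had 110.0, 161, 154, 80.3, 87.4 and 177 CPM in M-Z+ replicates 1 to 6. In M-Z- replicates 1 to 6 it had 15.8, 11.3, 13.1, 2.44, 7.36 and 22.3 CPM. The lowest M-Z+ embryo was 3.59-fold above the highest M-Z- embryo, the widest gap of the 3 genes. The mean was 128 ± 41.0 CPM for M-Z+ against 12.1 ± 6.87 for M-Z- (SD, n = 6 each), and the fitted log2 fold change was -3.41 with a standard error of 0.39. With 1 embryo omitted at a time, the log2 fold change ranged from -3.69 to -3.20.

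*Zim1* was detected in every M-Z- embryo, from 32 counts in replicate 4 to 317 counts in replicate 6, a 9.16-fold range in CPM. The 32 counts of replicate 4 have a 95% exact Poisson interval from 21.9 to 45.2, and the 105 counts of replicate 5, the next lowest, one from 85.9 to 127. These intervals cover counting error only. The SD of log2 CPM of *Zim1* was 1.12 among the M-Z- embryos, more than in 98.95% of the tested genes, and 0.49 among the M-Z+ embryos, more than in 84.8%. For *Usp29* it was 0.73 in M-Z- and 0.49 in M-Z+ embryos, and for *Peg3* 0.25 and 0.42, so that *Peg3* alone of the 3 genes had the smaller SD in M-Z- embryos.

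The opposite movement of *Peg3* and *Zim1* shows in their ratio within each embryo. The TPM of *Zim1* was 16.8%, 18.3%, 19.3%, 15.6%, 12.9% and 14.7% of that of *Peg3* in M-Z+ replicates 1 to 6. In M-Z- replicates 1 to 6 it was 0.967%, 0.678%, 0.874%, 0.149%, 0.328% and 1.00%. The means were 16.3% ± 2.35 and 0.666% ± 0.355 (SD, n = 6). The ratio varied less between the M-Z+ embryos than the level of either gene did, whereas among the M-Z- embryos it varied about as much, relative to its mean, as the level of *Zim1* did.

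**Figure D2:**
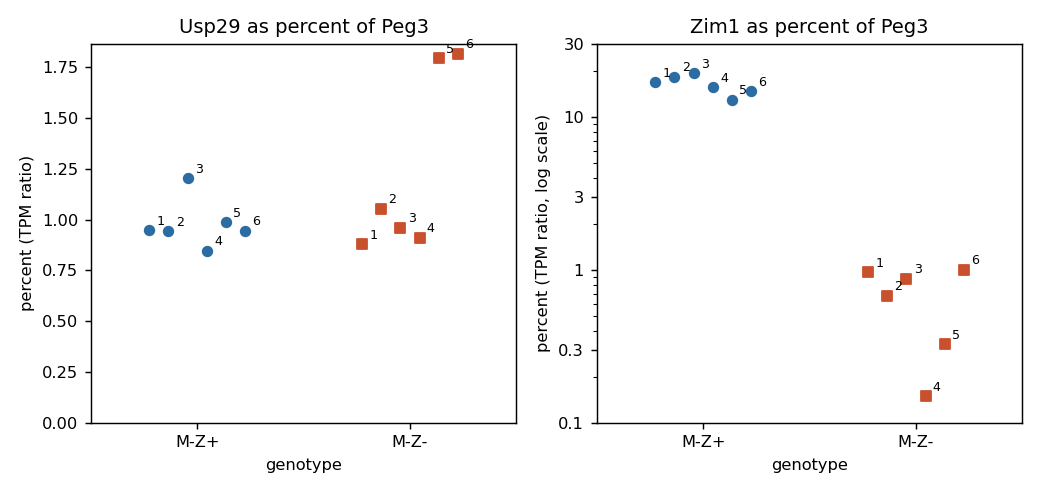
TPM of *Usp29* (linear axis from 0) and of *Zim1* (log axis) as a percentage of the TPM of *Peg3* in each embryo, numbered by replicate. *Usp29* is near 1% of *Peg3* in all embryos but M-Z- replicates 5 and 6, and *Zim1* is 12.9% to 19.3% of *Peg3* in M-Z+ and at most 1.00% in M-Z- embryos.

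Whether the genes of the domain varied together from embryo to embryo was examined within each genotype, on log2 CPM, for 3 pairs in 2 genotypes. Among the 6 M-Z+ embryos the 3 genes rose and fell together. *Peg3* and *Usp29* had a Pearson r of 0.947 (exact permutation test, two-sided, p = 0.00972, adjusted p = 0.0188 over the 6 relations) and a Spearman rho of 0.943 (exact permutation p = 0.0167, adjusted p = 0.05). *Peg3* and *Zim1*, which moved in opposite directions between the genotypes, rose and fell in the same direction here, with an r of 0.900 (exact permutation p = 0.00694, adjusted p = 0.0188) and a rho of 0.943 (exact permutation p = 0.0167, adjusted p = 0.05). *Usp29* and *Zim1* had an r of 0.913 (exact permutation p = 0.0125, adjusted p = 0.0188) and a rho of 0.886 (exact permutation p = 0.0333, adjusted p = 0.05). Without M-Z+ replicates 4 and 6, the lowest and the highest in *Peg3*, the r was 0.831, 0.889 and 0.825 over 4 embryos.

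The M-Z- embryos fell apart into replicates 5 and 6 and the other 4 for *Peg3* and *Usp29*, so a relation over all 6 rests on that division and no p is read for it, although these 3 relations are among the 6 adjusted over. That choice was made after the values were seen. The r of *Peg3* and *Usp29* was 0.985 over the 6 embryos and 0.581 over the 4 others. *Zim1* did not follow this division. M-Z- replicates 5 and 6, nearly equal in *Peg3* and in *Usp29*, had 7.36 and 22.3 CPM of *Zim1*, which are the second lowest and the highest value of the group. The r of *Zim1* was 0.199 with *Peg3* and 0.261 with *Usp29* over the 6 M-Z- embryos, and -0.258 and 0.0369 over the 4 others.

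**Figure D3:**
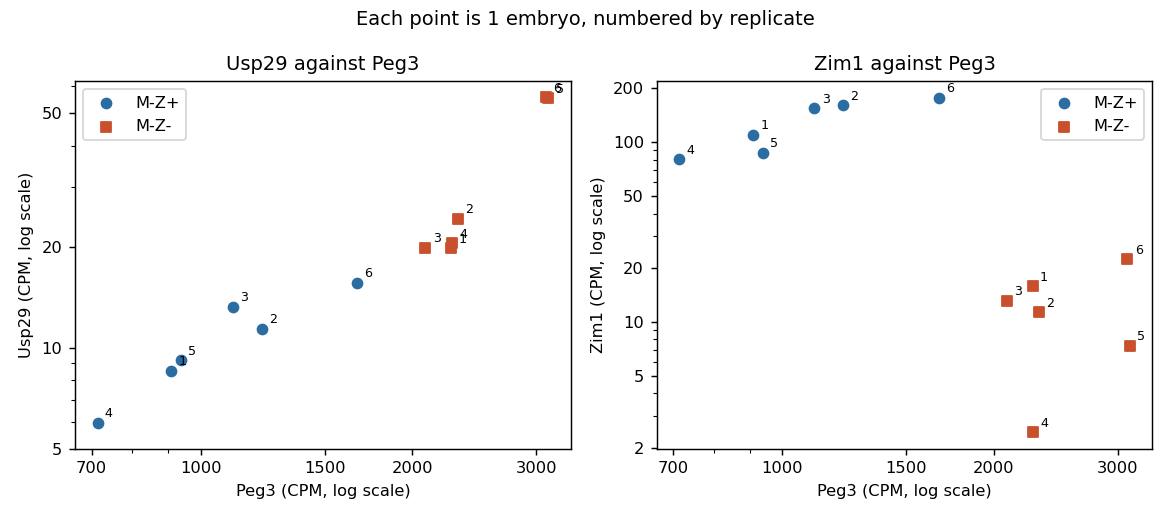
*Usp29* and *Zim1* against *Peg3* in CPM on log axes, 1 point per embryo, numbered by replicate. The M-Z+ embryos rise together in both plots, and the M-Z- embryos lie apart from them, above in *Usp29* and below in *Zim1*, with replicates 5 and 6 at the right.

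The levels of the 3 genes also moved with the gene length slope of the library among the M-Z+ embryos. The r with the slope was 0.984 for *Peg3* (exact permutation p = 0.00139, the smallest these embryos allow, adjusted p = 0.00834 over 6 relations), 0.888 for *Usp29* (exact permutation p = 0.025, adjusted p = 0.03) and 0.824 for *Zim1* (exact permutation p = 0.0125, adjusted p = 0.0278). The Spearman rho was 1.0, 0.943 and 0.943 (exact permutation p = 0.00278, 0.0167 and 0.0167, adjusted p = 0.0167, 0.0334 and 0.0334). Without replicates 4 and 6 the r was 0.922, 0.554 and 0.735 over 4 embryos. After the slope was taken out of both genes, the r of the M-Z+ embryos was 0.878 for *Peg3* and *Usp29*. It was 0.876 for *Peg3* and *Zim1* and 0.695 for *Usp29* and *Zim1*. None passed 0.05 (permutation, adjusted p = 0.075, 0.0583 and 0.122). This permutation is approximate, because values left after a fit are not freely exchangeable.

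Many genes elsewhere followed *Peg3* more closely than its neighbours did. Over the 12 embryos, with the mean of each genotype taken out, *Usp29* stood at rank 1254 in likeness to *Peg3* among 12875 genes with a mean of at least 5 CPM, with an r of 0.873, and *Zim1* at rank 4263, with an r of 0.402. With the slope itself, *Peg3* had an r of 0.970 in the same deviations, higher than 98.9% of 12876 genes, *Usp29* 0.897 (92.2%) and *Zim1* 0.481 (69.6%). These values share libraries, depth and the slope, and are a description.

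**Figure D4:**
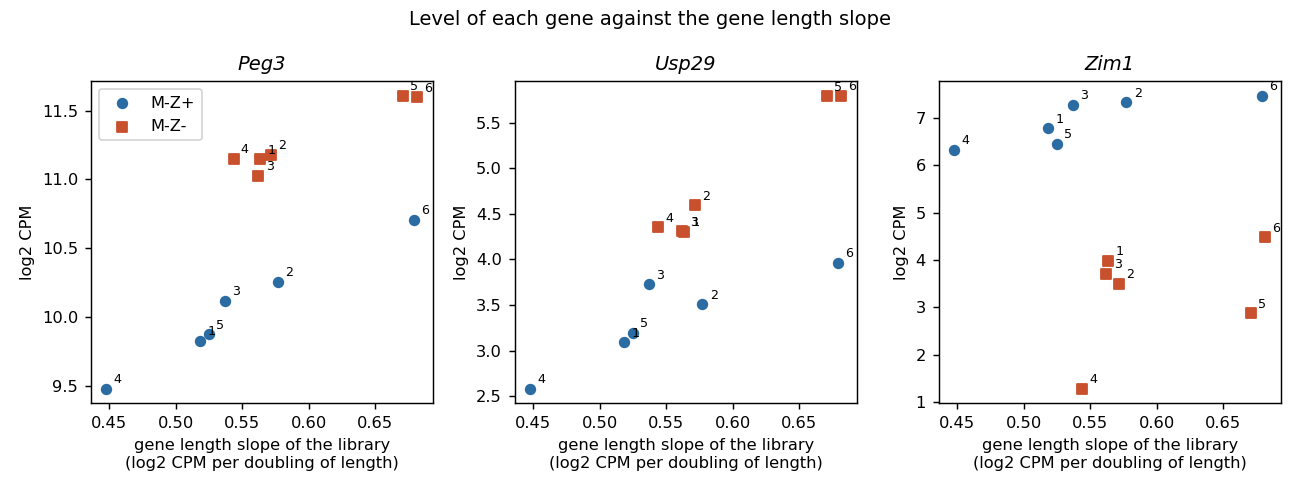
Log2 CPM of *Peg3*, *Usp29* and *Zim1* against the gene length slope of each library, 1 point per embryo, numbered by replicate. The M-Z- embryos are above the M-Z+ embryos in *Peg3* and *Usp29* and below them in *Zim1*. Of the 3 libraries of steep slope, 1 is M-Z+.

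The genotypes did not overlap for any of the 3 genes. The direction of each change was therefore bound to be the same within the libraries of steep slope and within the others. This division was made after seeing the data, and only 1 of the steep libraries is M-Z+. Among the 3 steep libraries, the 2 M-Z- embryos averaged 3110 ± 17.6 CPM of *Peg3* (SD, n = 2) against 1670.4 CPM in the M-Z+ embryo, a ratio of 1.86. They averaged 55.5 ± 0.184 CPM of *Usp29* (SD, n = 2) against 15.6 CPM, a ratio of 3.55. *Zim1* was at 14.8 ± 10.6 CPM (SD, n = 2) against 177 CPM, 11.9-fold lower.

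Among the other 9 libraries, *Peg3* averaged 2238 ± 103 CPM for M-Z- (SD, n = 4) against 979 ± 196 for M-Z+ (SD, n = 5), a ratio of 2.29. *Usp29* was at 21.1 ± 2.10 and 9.67 ± 2.78 CPM, a ratio of 2.18, and *Zim1* at 10.7 ± 5.78 and 119 ± 37.3 CPM, 11.1-fold lower. The ratios of *Peg3* and *Usp29* were close to each other here and far apart among the steep libraries. Among the M-Z- embryos the r with the slope was 0.965 for *Peg3*, 0.988 for *Usp29* and 0.394 for *Zim1*, and 0.0306, 0.503 and 0.882 without replicates 5 and 6. What the slope contributes to the levels of M-Z- replicates 5 and 6 was not tested.

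The genes around the domain were described in the same fit. Within 1 Mb of *Peg3* the table lists 48 other genes, of which 12 passed the filter and 25 had no count in any library, many of them vomeronasal and olfactory receptor genes. None of the 12 was called by edgeR, where 0.0811% of all tested genes were. DESeq2, which called 40 genes of the whole table, called none of the 23 of the 48 that had a count. Some of these 23 had only a few counts over all libraries, too few for a call. The median log2 fold change of the 12 was -0.08, against -0.01 over all tested genes. The unadjusted p of edgeR was below 0.05 for 3 of the 12, against 6.70% of all tested genes.

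*Smim17*, a gene for a small membrane protein, averaged 1.24 ± 0.568 CPM for M-Z+ against 0.565 ± 0.234 for M-Z- (SD, n = 6 each), from 3 to 40 counts per library, and its log2 fold change was -1.13 with an edgeR adjusted p of 0.685. For the zinc-finger genes *Zfp444* and *Zfp772* the log2 fold change was -0.38 and -0.31, each with an edgeR adjusted p of 0.744. The other 9 lay between -0.25 and 0.16, among them 8 more zinc-finger genes and *Clcn4*, a chloride channel gene, with -0.03. *Zim2* had no count in any library, which allows up to 0.156 to 0.25 CPM at these depths (3 counts). *Zim3* had 2 counts in M-Z- replicate 3, 3 counts in M-Z- replicate 6 and none elsewhere, and it overlaps *Usp29*.

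**Figure D5:**
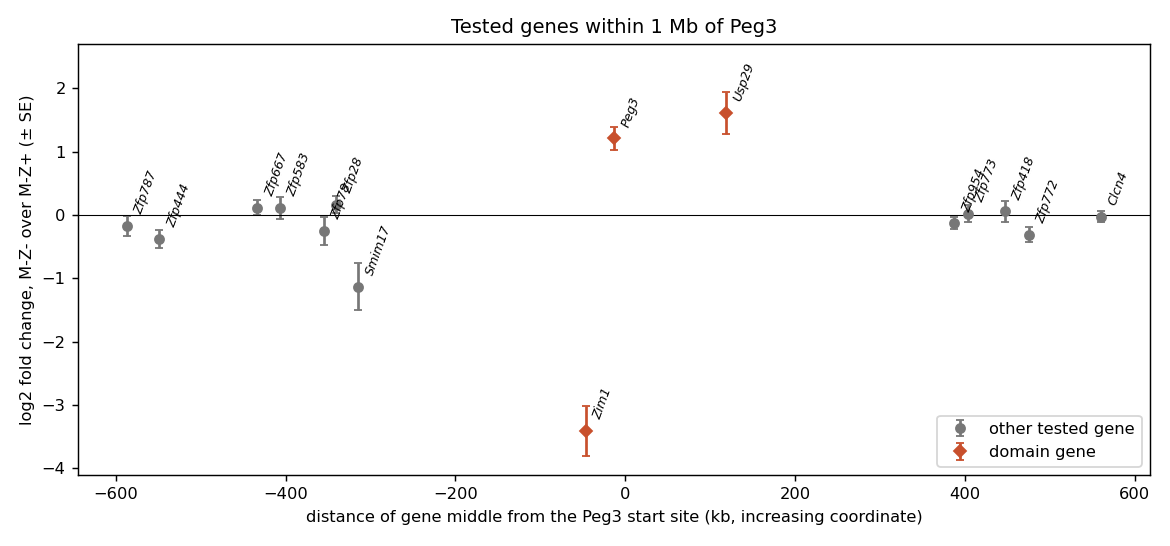
Log2 fold change of M-Z- over M-Z+ embryos, with its standard error, for the 3 genes of the domain and the 12 other tested genes within 1 Mb, by distance of the middle of each gene from the *Peg3* start site in kb. *Peg3* and *Usp29* lie at 1.21 and 1.61 and *Zim1* at -3.41, whereas the nearest tested genes on either side lie at -1.13 (*Smim17*) and -0.13 (*Zfp954*).

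Genes that work with the products of the domain were described as lists. Of 9 partners or substrates of PEG3 and USP29, all tested, none was called by edgeR, as 0.0811% of all tested genes were. None of the 9 had an unadjusted p below 0.05, where 6.70% of all tested genes did. At that share a list of 9 genes can well hold none, so this says nothing about the list. The median log2 fold change of the 9 was -0.10. *Trp53*, which encodes the p53 tumor suppressor, averaged 132 ± 23.7 CPM for M-Z+ against 117 ± 4.43 for M-Z- (SD, n = 6 each), and *Snai1*, a repressor of epithelial genes, 25.4 ± 4.71 against 22.3 ± 2.73. Of 14 target genes of p53, also all tested, none was called and none had an unadjusted p below 0.05, with a median log2 fold change of 0.01. A list of 14 genes is also too short for this lack to say anything. The largest value was 0.39 for *Eda2r*, a receptor gene of the TNF receptor family (standard error 0.21, edgeR adjusted p = 0.749), and *Ccng1*, a cyclin gene, had 0.14 (standard error 0.07, edgeR adjusted p = 0.749).

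Among the families of the members, none of 318 tested *Zfp* genes and none of 45 other tested *Usp* genes was called by edgeR. Of all tested genes 0.0811% were called, so the lack of calls says nothing about either family. The unadjusted p was below 0.05 for 16 of the *Zfp* genes (5.03%) and 3 of the *Usp* genes (6.67%), against 6.70% of all tested genes. The median log2 fold changes of the 2 families were 0.04 and 0.06. The lowest unadjusted p in each family belonged to *Zfp653* and *Zfp395*, with log2 fold changes of -0.34 and 0.19, and to *Usp18*, a protease induced by interferon, and *Usp21*, with -0.90 and -0.43 (edgeR adjusted p = 0.645, 0.691, 0.685 and 0.685).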

How the data were processed

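RNA-seq of 6 M-Z+ and 6 M-Z- embryos was used, grouped by the sample titles. The authors deposited raw read counts per gene and FPKM values, which come back from the counts with 1 length per gene to within 0.112%. The submitters' processing notes name HISAT2 2.0.4, Trim Galore 0.4.1 and mm10. The methods of the paper describe a strand-specific count with featureCounts after alignment with STAR, on an older mouse build. Since the notes on these samples name another aligner and build, those settings were not assumed for the deposited table, whose counting program and strand setting are therefore not known. The listed positions overlapped those of RefSeq on GRCm38.p6 for 99.8% of 25647 genes matched by symbol.

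edgeR 4.0.16 in R 4.3.3 (filterByExpr, TMM, glmQLFit, glmQLFTest) was run over 16026 genes with Benjamini–Hochberg adjustment. The standard error is the size of the log2 fold change over the square root of F. TPM were computed with the lengths implied by the FPKM values. DESeq2 1.42.0 and sva served as alternatives. Correlations used exact permutation over all 720 pairings, adjusted over the 6 relations of the 3 members found instead of the 12 planned for 4 members, with Python 3.11.15 and scipy 1.17.1, and a prior count of 0.5 in log2 CPM. The gene length slope is that of log2 CPM on log2 length over the tested genes of a library. Where this slope was taken out of both genes, the permutation is approximate and not exact.

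Genes named were the members, *Zfp57*, the tested genes within 1 Mb of *Peg3* with *Zim2* and *Zim3*, the 5 genes most like each member, and the called genes of each list or its 2 with the lowest p. *Tpbpa*, *Prl3d1*, *Zfp706* and the 4 neural markers were named after their values were seen. The members, lists and tests were chosen with earlier results of these data known.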

Additional observations from a re-analysis of the deposited data

How the results depend on the processing

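The values of the members are descriptions, since they were chosen on this contrast. With DESeq2, DESeq2's normalization in edgeR, no filter, a minimum mean of 50 counts, a replicate block, the slope of gene length as a covariate or 2 surrogate variables, the log2 fold change was 0.99 to 1.24 for *Peg3* and -3.74 to -3.41 for *Zim1*. Leaving out 1 embryo at a time, the log2 fold change ranged from 1.11 to 1.36 for *Peg3*, from 1.38 to 1.75 for *Usp29* and from -3.69 to -3.20 for *Zim1*. That of *Usp29* was 1.61 by DESeq2, 1.09 with the slope and 1.22 with the surrogate variables, where it met the rule for a call, and the cause was not tested. Without the 3 libraries of steep slope, which was tried only after seeing the data, the values were 1.19, 1.12 and -3.49 for *Peg3*, *Usp29* and *Zim1*. The number of all genes called, 13, was 40 by DESeq2, 23 with the slope and 31 with the surrogate variables, and 11 to 15 with an embryo left out. No gene within 1 Mb of *Peg3* other than the members was called in any setting. The alternatives for *Zfp264* were not run.

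Embryos of both genotypes carry the numbers 1 to 6, but the labels do not say that these form pairs. Deviations of embryos with the same number had positive correlations across genes, from 0.051 to 0.314 for replicates 1 to 5 and 0.627 for replicate 6. Both libraries of replicate 6 had a steep gene length slope, and its part in this value was not tested. Of 12 embryos, 5 correlated best with their own number, and with only 6 numbers some such matches arise by chance. With the replicate block 21 genes were called, against 13 without it, and the log2 fold change of *Usp29* was 1.52. The standard error fell from 0.18 to 0.13 for *Peg3* and from 0.39 to 0.24 for *Zim1*. These values do not settle whether the numbers form pairs, and a batch shared by embryos of the same number was not tested.

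The correlations changed little with the deposited FPKM values or DESeq2's normalization. With the slope taken out, that of *Peg3* and *Usp29* was 0.878 in M-Z+ and 0.774 in M-Z- embryos, that of *Peg3* and *Zim1* 0.876 and -0.750, and that of *Usp29* and *Zim1* 0.695 and -0.886, and no p is read for M-Z- embryos. Permutation tests were planned for both genotypes. Those of M-Z- embryos, with and without the slope, were set aside after they were seen, and some had passed 0.05 after adjustment. Without the 2 embryos farthest in the first gene, the values were 0.831 and 0.581, 0.889 and -0.258, and 0.825 and 0.0369, over 4 embryos, for which no p is read. The cause of the reversals among M-Z- embryos was not tested. *Zim2* and *Zim3* could not be compared between the genotypes at these depths.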

Other observations

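The genes whose level followed each member most closely from embryo to embryo lay elsewhere in the genome. Likeness was measured by Pearson r over the 12 embryos, on log2 CPM with the mean of each genotype taken out, over 12876 genes with a mean of at least 5 CPM. These values share libraries and the gene length slope, and are given as a description.

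The 5 genes most like *Peg3* were *Slc39a10*, a zinc transporter gene, with an r of 0.995, *Eya4*, a transcriptional coactivator gene, with 0.993, *Flrt2*, a cell adhesion gene, with 0.993, *Cep350*, a centrosome gene, with 0.992, and *Atm*, a kinase gene of the DNA damage response, with 0.991. Their lengths in the table run from 5844 to 17616 bases, and that of *Peg3* is 15963 bases. The 5 genes most like *Usp29* were *Zfp317* with an r of 0.957, the kinesin gene *Kif21a* with 0.955, the sarcomere genes *Neb* and *Myom1* with 0.952 and 0.951, and *Chordc1* with 0.948. Their lengths run from 1824 to 28669 bases, against 15811 bases for *Usp29*. *Zim1* had no neighbour as close. The most like were *Riok1* with an r of 0.866, *Zfp68* with 0.864, *Stxbp3* with 0.856, *Zfp260* with 0.839 and *Pip4k2a* with 0.836, with lengths from 2744 to 14192 bases against 11481 bases for *Zim1*.

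No single embryo stood apart from the other 5 of its genotype in any of 14 groups of values, those of the 3 members, *Zfp57* and the 3 neighbours with an unadjusted p below 0.05 in Dixon's test at the 95% level, which flags about 1 in 20 groups by chance. The test takes the gap between an extreme value and the next one. It therefore could not flag a pair such as M-Z- replicates 5 and 6 in *Usp29*, with 55.4 and 55.7 CPM.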
